A study of Rattus norvegicus with 28 samples.

Results

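The comparison described here set spinal cord that had been contused and then given a subacute transplant of neural progenitor cells (group T2_NPC, 4 arrays) against uninjured spinal cord (group T0, called sham in the labels, 4 arrays). These 8 arrays, of 28 in the series, were chosen by their labelled group alone, and the comparison asks which part of the injury change is still present after the transplant. All animals were adult female Sprague Dawley rats. T2_NPC rats received a 250 kdyn contusion in the thoracic cord, then neural progenitor cells 1 week later on both sides of the epicentre, and the cord was taken 1 week after the transplant, which is 2 weeks after injury. The cells came from adult rats and are described as activated by injury of the donor. Tacrolimus (FK-506), an immunosuppressant that blocks calcineurin, was given at 1 mg/kg to transplanted rats. The methods text speaks of all animals, and it is not stated whether the T0 rats were included. T2 rats (4 arrays), contused and sampled at the same 2 weeks without cells, serve as the injured reference. The methods speak of cell-free medium given by injection to injured controls, without stating whether T2 was among them. Each array held the RNA of a 1.5 cm piece of cord. The labels give that piece as segments T6 to T10 without dura mater for T0 and T2, and as T7 to T10 with no mention of the dura for T2_NPC.

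A spinal cord contusion kills neurons and oligodendrocytes at the epicentre, opens the blood vessels, and draws in neutrophils, monocytes and T cells from the blood. Over the following weeks macrophages and microglia clear myelin debris, fibroblasts and meningeal cells lay down a collagen scar surrounded by reactive astrocytes, and Schwann cells enter from the roots. Neural progenitor transplants are studied as a source of new glia and of trophic factors in this setting.

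RNA was measured on single-colour Agilent arrays, and values are given on the log2 scale of the deposited quantile-normalised table, for replicates 1 to 4 in that order. A value after ± is the standard error of the limma fit for a difference and the SD over 4 arrays for a mean. Levels of different genes are not set against each other, since each probe has its own brightness. Between 77.4% and 78.7% of spots were well above background on the T0 arrays, between 78.0% and 80.9% on the T2_NPC arrays, and none was saturated. The neuronal, myelin and astrocyte markers listed below were well above background on T0 arrays. Scanner files and table columns named different samples for 16 of the 28 arrays. All 4 T2_NPC arrays and T0 replicates 1 and 3 were free of this conflict, whereas T0 replicates 2 and 4 and T2 replicates 1 and 4 were not. Slides and sessions given here are those of the scanner file that matches each table column by rank order. By that match, T0 replicates 1 and 3 were scanned in session 1 and replicates 2 and 4 in session 2. The scanner file deposited as T0 replicate 2 was scanned in session 3, on slide 3. The T2_NPC arrays shared slide 7 and were scanned in session 3, which by the match holds no T0 or T2 array. Slide, scan session, the segments taken and the transplant therefore cannot be told apart in T2_NPC. The methods call the arrays of a group biological replicates. Host and donor were both rats, so RNA of the graft and of the host cannot be told apart, and neither can fewer cells of a type and less RNA per cell.

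Of 35469 features tested, 16909 (47.7%) differed between T2_NPC and T0 at an adjusted p under 0.05, 7525 (21.2%) higher and 9384 (26.5%) lower in transplanted cord. T2 without cells differed from the same T0 arrays at 14176 features (40.0%), 6294 (17.7%) higher and 7882 (22.2%) lower. At least a 2-fold difference was called for 8263 features, and at least an 8-fold one for 541 higher and 127 lower. With only the arrays free of the naming conflict, 18573 features were called. With the time-course arrays of session 1 alone the count was 15907, and with those of session 2 alone 14122. The conflict-free T0 and T2 arrays are those of session 1, so here and below these settings are not separate checks. When the scanner files were instead assigned to the samples they were deposited under, 847 features were called. In that assignment the files standing for T0 replicates 2 and 4 match, by rank order, table columns of other groups. The median log2 difference over all features was -0.07.

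The largest rises, chosen among genes without overlap between the T2_NPC and T0 arrays, included genes of macrophages and other leukocytes. Fcrls, an Fc receptor-like gene of myeloid cells (now Fcrl2), had log2 values of 6.91, 7.25, 6.73 and 5.50 in T0 and 15.77, 15.91, 14.01 and 16.04 in T2_NPC. All T2_NPC arrays were far above all T0 arrays, with replicate 3 the lowest of the transplanted cords. Fcrls rose 455-fold (95% interval 142 to 1460, log2 difference 8.83 ± 0.81, adjusted p = 6.79e-09). Cd68, a lysosomal glycoprotein of macrophages, had log2 values of 9.47, 9.20, 9.51 and 8.83 in T0 and 16.24, 16.11, 16.02 and 16.05 in T2_NPC. The arrays of each group lay close together and far from the other group, and the rise was 116-fold (95% interval 91.4 to 146, log2 difference 6.85 ± 0.16, adjusted p = 7.54e-19). Gpnmb, a glycoprotein of phagocytic macrophages, differed by 6.37 ± 0.17, Plbd1, a phospholipase B-like enzyme, by 7.51 ± 0.27, and Hk3, a hexokinase of blood cells, by 6.38 ± 0.24. Ifitm1, an interferon-induced membrane protein, differed by 7.18 ± 0.26, Ms4a4a, a macrophage membrane protein, by 6.30 ± 0.29, Klra5, a lectin-like receptor of a multigene family, by 6.56 ± 0.29 and RGD1559482 by 7.45 ± 0.27. The probe for Klra5 may also bind other members of its family.

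The largest falls, chosen under the same condition, included genes of neurons. Pvalb, the calcium-binding protein parvalbumin of fast-spiking interneurons and of muscle, had log2 values of 13.79, 13.32, 13.46 and 13.69 in T0 and 9.64, 9.28, 11.22 and 9.18 in T2_NPC. The T0 arrays were all above the T2_NPC arrays. Pvalb fell 13.3-fold (95% interval 6.22 to 28.6, log2 difference -3.74 ± 0.53, adjusted p = 3.55e-06). Nrn1, the neuronal growth factor neuritin, read 12.63, 11.87, 12.43 and 11.64 in T0 and 7.95, 8.02, 9.06 and 8.45 in T2_NPC, again without overlap, and its difference was -3.77 ± 0.39 (adjusted p = 3.66e-08). Gjd2, a gap junction protein of neurons, read 9.64, 8.61, 9.16 and 8.79 in T0 and 4.86, 4.96, 6.13 and 5.54 in T2_NPC and differed by -3.68 ± 0.44 (adjusted p = 2.89e-07). Transplanted cords were lower throughout for each of these genes. The remaining falls were Grifin, a galectin-related protein (-3.89 ± 0.81), Hspb3, a small heat shock protein (-3.75 ± 0.49), Tcfap2b, a transcription factor now named Tfap2b (-3.55 ± 0.63), Lin7b, a synaptic scaffold protein (-3.53 ± 0.49), Gng13, a G protein gamma subunit (-3.41 ± 0.46), Pln, the calcium pump regulator phospholamban (-3.35 ± 0.29), and Mrgprb2, a receptor of a family with near-identical copies and so uncertain (-3.84 ± 0.46). Each of these rises and falls kept its call under all alternatives run except the assignment of scanner files to their deposited samples.

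**Figure D1:**
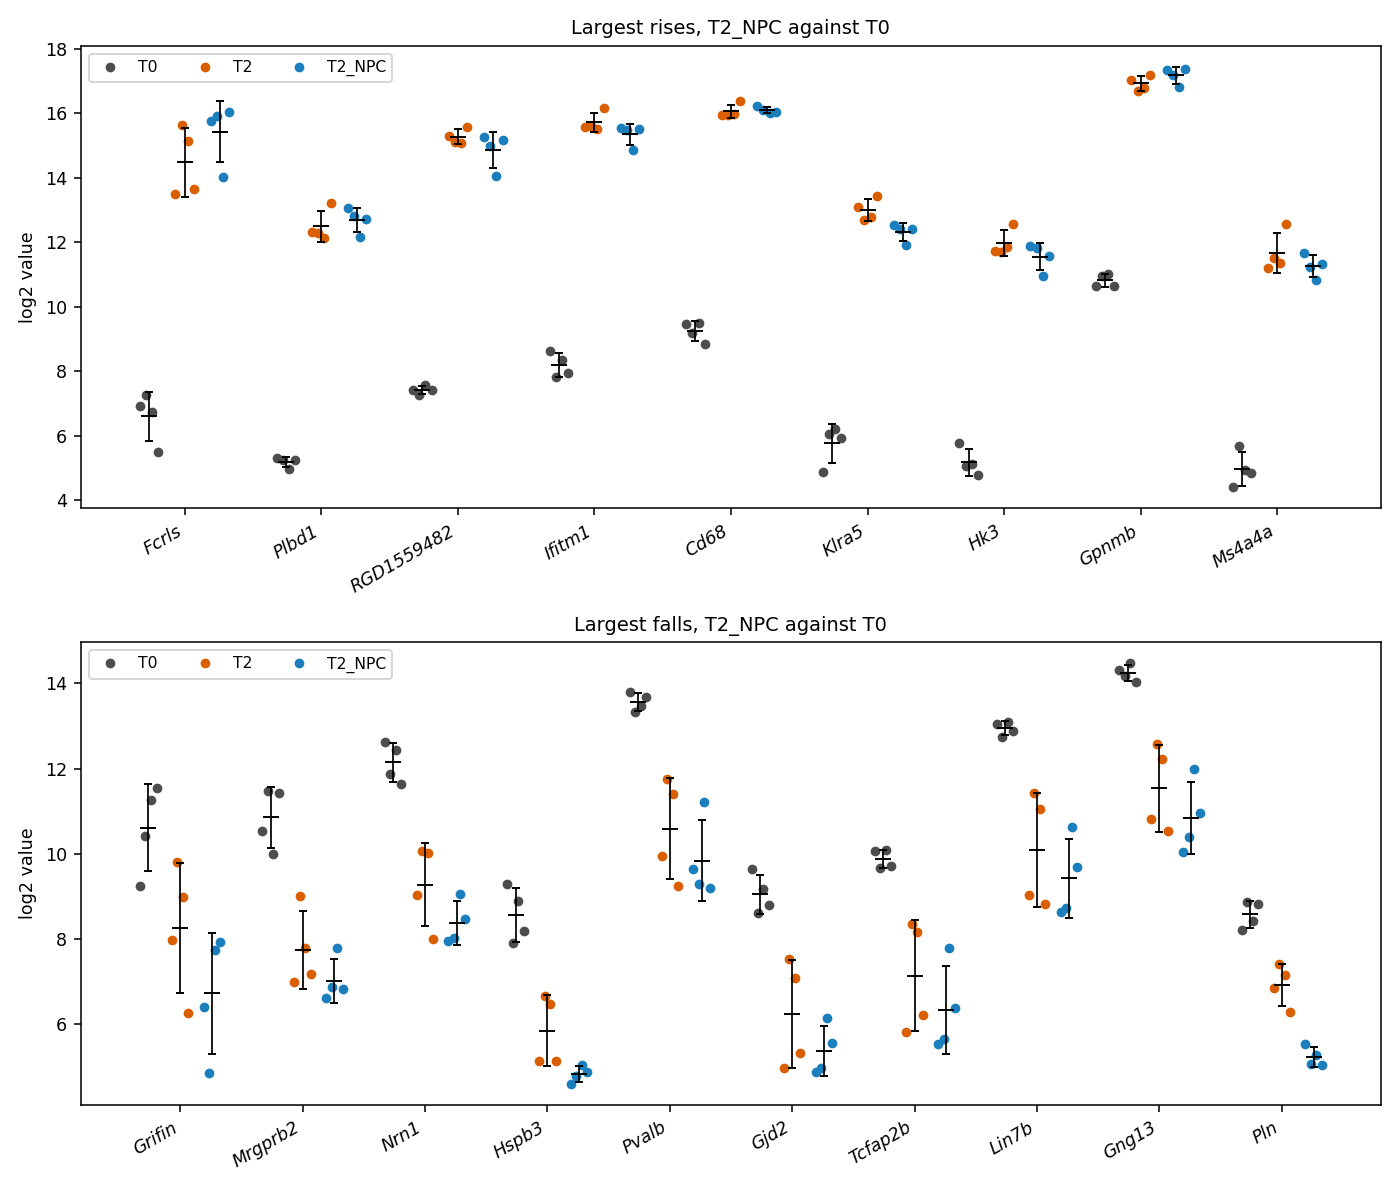
Log2 values of the rises (upper panel) and falls (lower panel) named above on each T0, T2 and T2_NPC array, with points for arrays and bars for the mean and SD (n = 4). The 4 T2_NPC arrays do not overlap the 4 T0 arrays for any gene shown, which was a condition of their choice.

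A further 370 features, 153 of them with a gene symbol, were well above background on all 4 T2_NPC arrays and on no T0 array, so that their level in uninjured cord is only bounded. For these the fold is set against the lowest detected signal of each T0 array, or the probe's own value where that was higher. The words at least refer to that floor, here and below. It is not a strict bound, since undetected signals could be brighter, as Msr1 was at 3.88 in T0 replicate 2. Siglec1, the macrophage receptor sialoadhesin, was at least 228-fold higher, with log2 values of 1.37, 1.37, 2.31 and 2.75 in T0 and 10.63, 10.51, 10.19 and 9.98 in T2_NPC. Msr1, a scavenger receptor of macrophages, was at least 128-fold higher, with 1.49, 3.88, 1.45 and 1.61 in T0 and 10.36, 9.14, 9.52 and 10.34 in T2_NPC. Both were not well above background on any T0 array and bright on each T2_NPC array. Atp6v0d2, a proton pump subunit of macrophages and osteoclasts, was at least 116-fold higher and Lilrb4, an inhibitory receptor of leukocytes, at least 99.1-fold. Mmp7, the matrix protease matrilysin, was at least 149.6-fold higher, but its T2_NPC values of 8.02, 11.75, 8.04 and 13.20 split into a low and a high pair, while T2 read 13.03, 12.14, 13.00 and 13.70. The reverse, detection on all T0 and no T2_NPC arrays, held for 197 features, 51 of them with a symbol.

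The 33 gene lists used to order the results held 373 genes found on the array. Of these, 194 were higher and 109 lower in T2_NPC than in T0. Of the 303 called, 248 kept the call in each of up to 18 other settings run on the value table and the matched scanner files, 55 lost it in at least 1, and none turned direction. Under the scanner files at their deposited samples 25 kept the call and 301 kept the direction. Among the calls counted below, those of Cx3cl1 (11 settings), Bcan (8), Dusp1 and Grin2b (7 each) were lost often. So were those of Birc5, Ccl9, Myh4 and Ppp3r1 (6 each) and of Ccl5 and Creb1 (5 each). Calls of Bdnf, Lingo1 and Olig1 were lost in 2 settings, and those of Mag and Mfsd2 with session 1 alone. Other losses are given with the gene below or came in fewer than 5 settings. The lists whose members were all called higher were those of macrophages and microglia, Fc receptors, lysosome, lipid efflux, complement and Schwann cells. Only the neuronal list had all of its members called lower, while 17 of 18 cholesterol synthesis genes were. Over all features 21.2% were higher and 26.5% lower. The counts of the oligodendrocyte precursor, neural progenitor, endothelial and skeletal muscle lists below were not far from these shares. They are not read as a result about those cells.

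**Figure D2:**
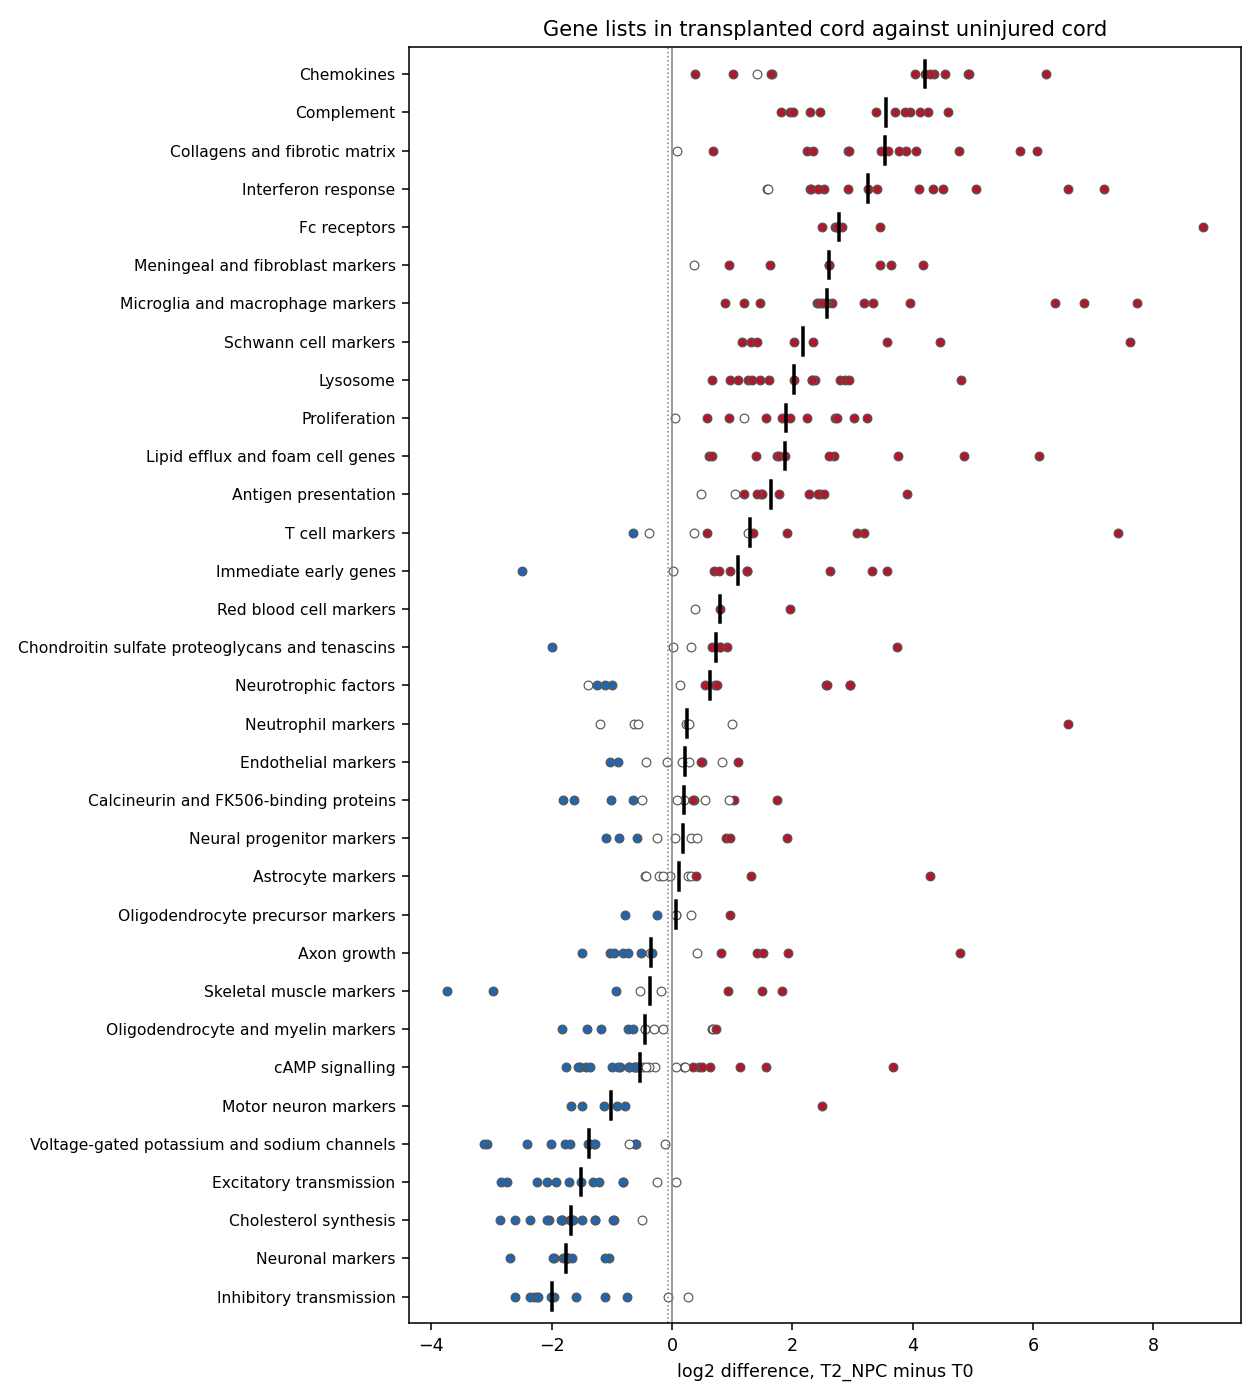
Log2 difference T2_NPC minus T0 for every member of the 33 gene lists, 1 row per list, with red points called higher, blue points called lower and open points not called. The black bar is the list median and the dotted line the median of all features (-0.07). The chemokine median of 4.20 and the inhibitory transmission median of -1.99 are the 2 ends.

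All 16 microglia and macrophage markers were higher in T2_NPC, with a median log2 difference of 2.58 against -0.07 over all features, and the same list stood at a median of 2.64 in T2 without cells. The smallest difference was that of P2ry12, a receptor of resting microglia (0.88 ± 0.31), whose call was lost in 6 of the 18 settings. Trem2, a lipid-sensing receptor of microglia, read 13.78, 13.68, 13.85 and 13.37 in T0 and 16.34, 16.30, 16.32 and 16.39 in T2_NPC. The groups were well apart and the rise was 6.32-fold (95% interval 5.17 to 7.72, log2 difference 2.66 ± 0.14, adjusted p = 5.84e-13). Mrc1, the mannose receptor of tissue-repair macrophages, read 5.16, 6.0, 5.96 and 5.55 in T0 and 10.02, 9.75, 8.91 and 9.78 in T2_NPC and rose 15.4-fold (95% interval 10.5 to 22.7, log2 difference 3.95 ± 0.27, adjusted p = 5.39e-11). Cx3cr1, the fractalkine receptor, differed by 2.41 ± 0.40, Itgam by 3.19 ± 0.45 and Ptprc, the pan-leukocyte antigen, by 2.58 ± 0.26.

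The machinery by which phagocytes take up and digest material rose with these markers. All 6 Fc receptor genes were higher (median 2.78), among them Fcgr2a at 3.45 ± 0.15 and Fcer1g, the signalling chain shared by Fc receptors, at 2.74 ± 0.19. All 15 lysosome genes were higher (median 2.02). Ctsk, a collagen-degrading cathepsin, read 9.16, 9.51, 9.51 and 9.03 in T0 and 14.41, 13.96, 13.84 and 14.21 in T2_NPC. Its T2_NPC arrays were all above T0 and its rise was 27.9-fold (95% interval 21.2 to 36.8, log2 difference 4.804 ± 0.19, adjusted p = 4.48e-15), while its difference from T2 was -0.76 ± 0.19 (adjusted p = 0.0145). The Ctsk call against T2 was lost in 5 of the 18 settings, with -0.38 (adjusted p = 0.23) on arrays free of the naming conflict. Hexa, which degrades gangliosides, differed from T0 by 2.88 ± 0.33, Gusb by 2.94 ± 0.26 and Lipa, which frees cholesterol from its esters, by 2.38 ± 0.25. All 11 genes of lipid efflux and foam cells were higher, with a median of 1.88 in T2_NPC and 2.73 in T2. Abca1, the cholesterol exporter, read 7.96, 8.35, 7.87 and 7.61 in T0 and 13.12, 13.02, 12.16 and 12.91 in T2_NPC, with no overlap, and rose 28.9-fold (95% interval 17.9 to 46.7, log2 difference 4.85 ± 0.33, adjusted p = 6.20e-11). Soat1, which esterifies cholesterol for storage, differed by 2.61 ± 0.28 and the scavenger receptor Cd36 by 3.75 ± 0.40. Fabp4, a lipid carrier of macrophages and fat cells, was not well above background in T0 and at least 68.5-fold higher in T2_NPC. Lpl, which releases fatty acids from lipoproteins, differed from T0 by 1.77 ± 0.30 and from T2 by -1.27 ± 0.30 (adjusted p = 0.00944). The Lpl difference from T0 was 0.60 (adjusted p = 0.074) under normexp, and that from T2 was -0.75 (adjusted p = 0.253) on arrays free of the naming conflict, with neither then called.

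All 12 complement genes were higher (median 3.55, against 2.83 in T2). C1qc, a chain of the recognition molecule of the classical pathway, read 9.64, 10.27, 10.38 and 10.05 in T0 and 14.21, 13.89, 14.30 and 13.75 in T2_NPC. The T2_NPC arrays stood within a narrow range above every T0 array, and the rise was 15.5-fold (95% interval 12.3 to 19.6, log2 difference 3.95 ± 0.16, adjusted p = 7.87e-15). C4b read 8.28, 10.20, 9.04 and 9.91 in T0 and 13.75, 13.68, 13.09 and 13.40 in T2_NPC, where the T0 arrays of session 1 (replicates 1 and 3) and session 2 differed, and its difference was 4.12 ± 0.48 (adjusted p = 2.55e-07). Serping1, the inhibitor of the first complement enzymes, differed by 3.87 ± 0.15. Of 13 chemokines, 12 were higher (median 4.20, and 4.12 in T2), and Ccl20 did not pass (1.42 ± 0.67, adjusted p = 0.0856). Cxcl13, which attracts B cells, read 6.32, 6.66, 7.44 and 6.48 in T0 and 12.30, 11.52, 11.65 and 11.19 in T2_NPC and Ccl2, the main monocyte attractant, 7.97, 7.27, 7.27 and 6.86 in T0 and 11.56, 11.64, 11.14 and 11.87 in T2_NPC. T2_NPC was above T0 on every array for both, with differences of 4.94 ± 0.66 and 4.20 ± 0.34. Of 12 antigen presentation genes 10 were higher (median 1.64). Tap1, the peptide transporter of class I presentation, differed by 3.91 ± 0.35, Psmb8 and Psmb9, subunits of the immunoproteasome, by 2.47 ± 0.28 and 2.43 ± 0.27, and B2m by 1.42 ± 0.10. RT1-Ba (0.49 ± 0.37) and Cd74 (1.04 ± 0.45) did not pass, and probes for RT1 genes, which have close copies, are uncertain.

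Interferon-stimulated genes were among the lists with the highest medians. Of 15, 14 were called higher than T0, with a median log2 difference of 3.26, and the median in T2 without cells was 2.70. Mx1, an antiviral GTPase, read 4.42, 4.26, 4.26 and 4.73 in T0, 9.78, 9.07, 9.08 and 9.52 in T2 and 10.92, 11.03, 10.699 and 11.36 in T2_NPC. Both injured groups were above T0 on every array, and T2_NPC rose 96.1-fold (95% interval 38.0 to 243, log2 difference 6.59 ± 0.65, adjusted p = 1.82e-08) from T0. Ifit3, an antiviral protein, read 2.90, 4.08, 4.21 and 4.46 in T0, 8.04, 7.04, 6.74 and 7.32 in T2 and 8.73, 9.001, 8.67 and 9.49 in T2_NPC and differed from T0 by 5.06 ± 0.55. Irf7, the transcription factor that amplifies interferon production, differed by 4.34 ± 0.45, Rsad2 by 4.11 ± 0.52 and Oas1a, a sensor of double-stranded RNA, by 3.26 ± 0.36. Mx1 and Ifit3 were well above background on 2 of the 4 T0 arrays and on all T2_NPC arrays, so their T0 level is loosely measured. Ifit1, well above background on 2 T2_NPC arrays and on no T0 array, did not pass (1.59 ± 1.60, adjusted p = 0.442). Against T2, 13 of the 15 differences were above 0, where 46.5% of all features were, and 1 of them passed the test. Mx1 differed from T2 by 1.64 ± 0.65 (adjusted p = 0.113) and Ifit3 by 1.69 ± 0.55 (adjusted p = 0.0562), neither of which is a call.

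The promoters of these genes are shown because the factors activated by interferon receptors bind a short repeated element. GAAANNGAA, the core of that element, was searched on both strands in the RefSeq promoter table of assembly GRCr8, from 250 bases before to 50 bases after each start. It was present in 3251 of 33469 promoters (9.71%), in 6 of the 9 interferon list genes that have an entry, which were Irf7, Ifit3, Oas1a, Gbp2, Ifitm3 and Rsad2, and in 4 of the 11 antigen presentation genes with an entry, which were B2m, Tap1, Tap2 and Psmb8. A match is a run of letters and no evidence of binding. The 250 bases before the start are printed 5′ to 3′ in the direction of transcription, with the matches in capitals, which overlap in Oas1a.
Oas1a (chr12:41330216-41330465, plus strand): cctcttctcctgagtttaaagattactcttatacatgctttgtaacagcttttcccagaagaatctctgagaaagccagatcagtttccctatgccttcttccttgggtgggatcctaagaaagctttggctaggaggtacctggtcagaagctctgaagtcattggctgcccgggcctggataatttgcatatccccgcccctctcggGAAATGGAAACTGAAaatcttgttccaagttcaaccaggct
Ifit3 (chr1:241527076-241527325, plus strand): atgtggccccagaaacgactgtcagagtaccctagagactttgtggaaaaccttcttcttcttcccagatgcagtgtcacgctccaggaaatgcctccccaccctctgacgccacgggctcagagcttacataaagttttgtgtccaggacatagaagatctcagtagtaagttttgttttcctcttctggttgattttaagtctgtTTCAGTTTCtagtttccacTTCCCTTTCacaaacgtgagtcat
Gbp2 (chr2:234005477-234005726, plus strand): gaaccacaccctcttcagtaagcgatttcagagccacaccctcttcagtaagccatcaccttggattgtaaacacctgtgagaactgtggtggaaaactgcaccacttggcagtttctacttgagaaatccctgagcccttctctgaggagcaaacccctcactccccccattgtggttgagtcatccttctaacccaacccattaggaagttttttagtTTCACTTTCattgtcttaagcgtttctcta
Tap1 (chr20:4668544-4668793, minus strand): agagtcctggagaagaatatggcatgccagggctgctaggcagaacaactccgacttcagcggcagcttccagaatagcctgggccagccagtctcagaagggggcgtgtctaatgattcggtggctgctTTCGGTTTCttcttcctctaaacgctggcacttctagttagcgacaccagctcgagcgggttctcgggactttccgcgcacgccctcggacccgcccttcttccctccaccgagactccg

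Cholesterol synthesis moved the other way. Of its 18 genes 17 were lower in T2_NPC (median -1.69, and -1.90 in T2), and for all 18 every T2_NPC array was below every T0 array, which held for 9276 of all 35469 features (26.2%). Hmgcs1, an early enzyme of the pathway, read 14.42, 14.84, 14.32 and 14.35 in T0 and 11.34, 11.77, 11.70 and 11.72 in T2_NPC. T0 was higher on every array, and the level fell 7.21-fold (95% interval 5.40 to 9.63, log2 difference -2.85 ± 0.20, adjusted p = 9.84e-11). Idi1 differed by -2.61 ± 0.19, Sqle, which makes the epoxide of squalene, by -2.07 ± 0.12 and Fdft1 by -2.04 ± 0.17. Insig1, which holds the sterol sensor in the endoplasmic reticulum, differed by -2.36 ± 0.24. Dhcr7 did not pass (-0.49 ± 0.21, adjusted p = 0.0607). Cyp51, the lanosterol demethylase, read 13.53, 13.55, 13.34 and 13.18 in T0, 11.22, 11.59, 10.97 and 11.27 in T2 and 12.04, 12.13, 12.21 and 12.10 in T2_NPC. T2_NPC lay between T0 and T2 with no overlap, and it differed from T0 by -1.28 ± 0.13 (adjusted p = 3.88e-08) and from T2 by 0.85 ± 0.13 (adjusted p = 2.82e-04). The sterol response letters TCACNCCAC, found in 374 of 33469 promoters (1.12%), were in none of the 12 list genes with an entry.

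**Figure D3:**
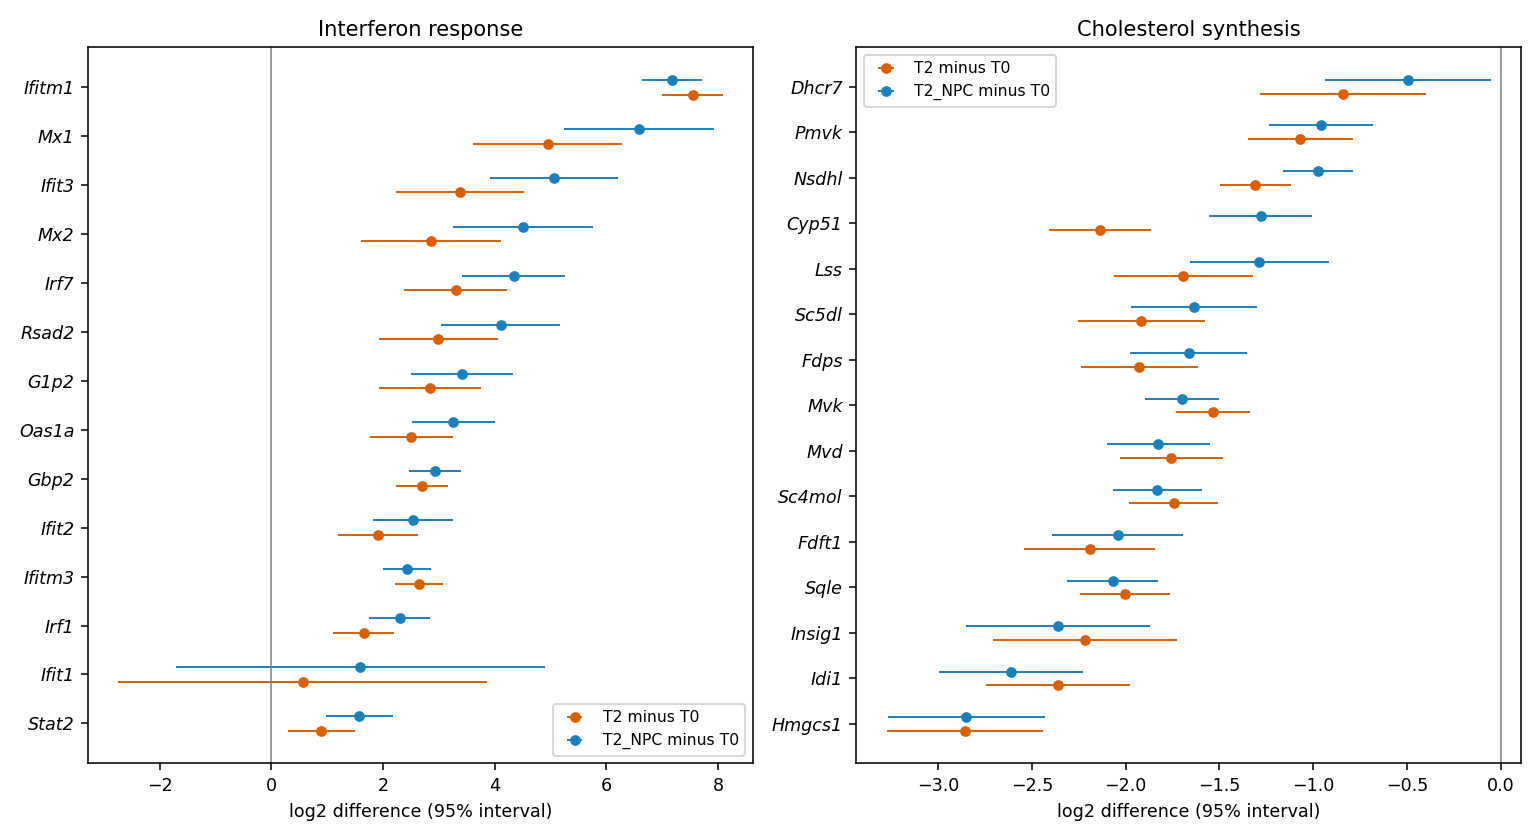
Log2 difference from T0 for the interferon response and cholesterol synthesis genes reported here, in T2 without cells and in T2_NPC, with 95% intervals from the limma fit (n = 4 arrays a group). The plotted estimates lie above 0 for the interferon genes and under 0 for the cholesterol genes in both groups, the interval of Ifit1 spans 0, and Mx1 stands at 4.95 in T2 and 6.59 in T2_NPC.

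Scar and peripheral nerve genes rose. Of 14 genes of collagens and fibrotic matrix 13 were higher (median 3.53, and 3.55 in T2). Col3a1, a fibrillar collagen of scars, read 9.48, 9.19, 9.92 and 8.73 in T0 and 15.41, 15.94, 15.07 and 15.16 in T2_NPC. T2_NPC was far above T0 on each array, and the rise was 66.9-fold (95% interval 32.9 to 136, log2 difference 6.06 ± 0.50, adjusted p = 1.00e-09). Col1a1 differed by 4.05 ± 0.40, Lox, which cross-links collagen, by 3.48 ± 0.46, and Timp1, an inhibitor of matrix proteases, by 3.59 ± 0.17. Col4a1 of basement membranes did not pass (0.09 ± 0.25), and its probes were called in opposite directions. Of 8 meningeal and fibroblast markers 7 were higher (median 2.61), among them the proteoglycans Lum (4.17 ± 0.52) and Dcn (3.63 ± 0.33) and the meningeal transporter Slc6a13 (3.46 ± 0.45). The labels do not mention dura removal for T2_NPC, and the part of meninges in these values was not tested. They stand beside a median of 3.03 in T2, whose label excludes the dura. All 8 Schwann cell markers were higher (median 2.19 in both groups). Prx, the periaxin of myelinating Schwann cells, read 5.47, 6.70, 5.64 and 6.25 in T0 and 10.82, 10.19, 10.12 and 10.76 in T2_NPC and rose 22.0-fold (95% interval 11.2 to 42.9, log2 difference 4.46 ± 0.47, adjusted p = 4.92e-08). Egr2, which drives peripheral myelination, differed by 3.58 ± 0.29 and Ngfr, carried by immature and denervated Schwann cells, by 2.34 ± 0.22. Of 8 proteoglycan and tenascin genes, which form nets around neurons and the rim of the scar, 5 were higher and 1 lower. Tnc, the tenascin of scars, read 4.85, 5.80, 4.98 and 4.83 in T0 and 8.75, 9.06, 8.67 and 8.94 in T2_NPC and rose 13.3-fold (95% interval 7.17 to 24.8, log2 difference 3.74 ± 0.43, adjusted p = 2.08e-07). Acan, the aggrecan of perineuronal nets, read 8.07, 8.00, 7.72 and 8.11 in T0 and 5.63, 5.51, 6.28 and 6.47 in T2_NPC and fell 4.00-fold (95% interval 2.53 to 6.31, log2 difference -2.0 ± 0.32, adjusted p = 1.50e-05). The groups were separate in both, in opposite directions.

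Neuronal transcripts were lower in transplanted than in uninjured cord. All 11 neuronal markers were lower (median -1.76, and -1.70 in T2), and their median difference between T2_NPC and T2 was -0.04. Snap25, a synaptic fusion protein, read 15.32, 14.93, 15.07 and 15.02 in T0 and 11.83, 11.97, 13.19 and 12.60 in T2_NPC. Replicate 3 was the highest of T2_NPC but still below T0. Snap25 fell 6.44-fold (95% interval 3.61 to 11.5, log2 difference -2.69 ± 0.40, adjusted p = 7.45e-06). Nefh, the heavy neurofilament, read 15.25, 15.57, 14.94 and 16.01 in T0 and 13.25, 12.97, 13.88 and 13.84 in T2_NPC and fell 3.89-fold (95% interval 2.55 to 5.93, log2 difference -1.96 ± 0.30, adjusted p = 7.46e-06). Syp of synaptic vesicles differed by -1.76 ± 0.35 and Map2 of dendrites by -1.81 ± 0.25. Of 6 motor neuron markers 5 were lower, among them Isl1 (-1.68 ± 0.32) and the choline transporter Slc5a7 (-1.50 ± 0.31). Chat, which makes acetylcholine, differed by -0.78 ± 0.30, and this call was lost in 9 of the 18 settings. Mmp9, a matrix protease of fast motor neurons and also of leukocytes, was the exception and was higher, with 1 of the 4 T0 arrays well above background (2.49 ± 0.61), but under normexp its difference was 0.32 (adjusted p = 0.417).

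Transmitter genes and channels fell with the neuronal markers. Of 12 inhibitory genes 10 were lower (median -1.99). Slc6a5, the glycine transporter of inhibitory terminals, read 12.89, 12.43, 12.80 and 12.53 in T0 and 9.41, 9.69, 10.99 and 10.11 in T2_NPC, without overlap, and fell 6.12-fold (95% interval 2.86 to 13.1, log2 difference -2.61 ± 0.53, adjusted p = 2.55e-04). Slc32a1, which loads GABA and glycine into vesicles, differed by -2.36 ± 0.42 and Gad2, which makes GABA, by -2.30 ± 0.48. Of 13 excitatory genes 11 were lower (median -1.51). Slc17a6, the main vesicular glutamate transporter of the cord, read 13.61, 13.76, 13.35 and 13.81 in T0 and 10.37, 10.44, 11.82 and 10.92 in T2_NPC and fell 6.69-fold (95% interval 3.82 to 11.7, log2 difference -2.74 ± 0.39, adjusted p = 3.53e-06). The NMDA receptor subunits Grin1 and Grin2a differed by -2.25 ± 0.40 and -2.83 ± 0.37. Grm5, a metabotropic glutamate receptor, did not differ from T0 at this spread (0.07 ± 0.25, adjusted p = 0.844) and was above T2 (1.12 ± 0.25, adjusted p = 0.0072), though not called on arrays free of the naming conflict (adjusted p = 0.0582). Of 14 channels listed as voltage-gated 11 were lower (median -1.38). Scn1a, a sodium channel of fast-spiking neurons, read 11.87, 11.45, 11.49 and 11.36 in T0 and 7.73, 7.81, 9.48 and 8.66 in T2_NPC, and Kcnc1, the potassium channel that goes with such firing, 10.97, 11.29, 10.83 and 11.28 in T0 and 7.44, 7.87, 8.97 and 7.79 in T2_NPC. T0 was above T2_NPC on all arrays for both, and they fell 8.70-fold (95% interval 4.48 to 16.9, log2 difference -3.12 ± 0.46, adjusted p = 6.02e-06) and 8.44-fold (95% interval 4.66 to 15.3, log2 difference -3.08 ± 0.41, adjusted p = 1.69e-06). Kcnj10, an inwardly rectifying potassium channel of glia and neither voltage-gated nor a neuronal marker, differed by -1.39 ± 0.21.

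Myelin genes of the central nervous system were mixed. Of 12, 6 were lower and 2 higher (median -0.45, and -0.73 in T2). Ugt8, which makes the myelin lipid galactocerebroside, read 10.66, 10.78, 10.64 and 10.12 in T0 and 8.71, 8.25, 9.23 and 8.69 in T2_NPC and fell 3.56-fold (95% interval 2.24 to 5.65, log2 difference -1.83 ± 0.32, adjusted p = 5.03e-05). Mog, on the outer face of myelin, fell 2.28-fold (95% interval 1.84 to 2.81, log2 difference -1.19 ± 0.15, adjusted p = 5.94e-07) and Fa2h, which hydroxylates myelin lipids, 2.67-fold (95% interval 2.05 to 3.47, log2 difference -1.42 ± 0.18, adjusted p = 9.93e-07). Mbp, a main protein of myelin, read 15.42, 16.36, 15.45 and 16.36 in T0, 15.31, 15.07, 14.80 and 15.38 in T2 and 16.44, 16.53, 16.69 and 16.61 in T2_NPC. The T0 arrays of session 1 (replicates 1 and 3) were below those of session 2, T2_NPC was above all of them, and the difference of 0.67 ± 0.27 from T0 lost its call in 11 of the 18 settings. Above T2, Mbp stood by 1.43 ± 0.27 (adjusted p = 0.00182), a call kept in every setting on the value table and the matched scanner files. Cldn11, a tight junction protein of myelin, differed from T0 by 0.73 ± 0.27, with its call lost in 9 settings. Of 6 oligodendrocyte precursor markers Pdgfra, their growth factor receptor, was higher (0.96 ± 0.15), Olig1 (-0.78 ± 0.17) and Sox10 (-0.25 ± 0.10) were lower, and Sox10 lost its call in 11 settings.

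Of 10 astrocyte markers 3 were higher (median 0.12), not far from the share of all features (21.2%). Glul, which makes glutamine, was called at 0.41 ± 0.17 but lost that call in 10 of the 18 settings. Vim, an intermediate filament of reactive astrocytes and of many other cells, read 11.56, 12.49, 11.54 and 11.86 in T0 and 16.16, 16.36, 16.10 and 16.03 in T2_NPC and rose 19.7-fold (95% interval 14.2 to 27.3, log2 difference 4.30 ± 0.23, adjusted p = 6.80e-13). Gfap, the filament of astrocytes, read 12.53, 13.23, 12.66 and 13.57 in T0 and 14.06, 14.70, 14.12 and 14.36 in T2_NPC and rose 2.48-fold (95% interval 1.64 to 3.76, log2 difference 1.31 ± 0.29, adjusted p = 5.96e-04), and in both genes the groups were separate. Aqp4, Slc1a3, Gja1 and Sox9 lay between -0.45 and -0.03 and did not pass. Of 10 neural progenitor markers, which the transplanted cells and reactive glia can share, 3 were higher and 3 lower. Nes (1.91 ± 0.13), Sox2 (0.90 ± 0.13) and Fabp7 (0.96 ± 0.18) were higher, and the lower ones included Hes5 (-1.10 ± 0.20) and Dcx (-0.58 ± 0.14). Sox2, a transcription factor of neural stem cells and astrocytes, read 11.96, 12.38, 11.96 and 12.55 in T0, 12.80, 12.60, 12.43 and 12.54 in T2 and 13.10, 13.01, 13.11 and 13.25 in T2_NPC. T2_NPC was above every T0 array, and it was the progenitor marker that also differed from T2 (0.53 ± 0.13, adjusted p = 0.0137). Of 12 proliferation genes 10 were higher than T0 (median 1.90, and 2.09 in T2). Top2a, a topoisomerase of dividing cells, read 5.94, 6.56, 6.01 and 5.79 in T0 and 9.05, 9.25, 9.27 and 9.72 in T2_NPC and rose 9.50-fold (95% interval 6.76 to 13.4, log2 difference 3.25 ± 0.24, adjusted p = 1.69e-10), and Cdc2, the mitotic kinase, differed by 3.02 ± 0.26. Pcna, a clamp of DNA replication, read 11.40, 11.41, 11.47 and 11.20 in T0, 12.18, 11.68, 11.72 and 11.98 in T2 and 11.15, 11.37, 11.45 and 11.70 in T2_NPC. It was close to T0 (0.05 ± 0.14, adjusted p = 0.814) and below T2 (-0.47 ± 0.14, adjusted p = 0.0357). That difference from T2 lost its call in 9 of the 18 settings and was -0.28 (adjusted p = 0.275) on arrays free of the naming conflict.

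Markers of other cells that the piece of cord could hold moved as follows, and their part in the lists above was not tested. Of 10 T cell markers 6 were higher and 1 lower, and 5 were not well above background on any T0 array. Of the 6, the T cell receptor chain Cd247 lost its call in 8 of 17 settings and the kinase Lck in 7 of 18. The largest log2 difference from T0 in this list was 7.42, for Cd8a. Cd2, an adhesion receptor of T cells, was at least 5.25-fold higher, with log2 values of 2.01, 3.49, 1.35 and 1.41 in T0 and 5.54, 5.17, 4.97 and 4.88 in T2_NPC. Zap70 was lower (-0.65 ± 0.20), and Cd3d (0.37 ± 0.22) and Cd3g (1.26 ± 0.60) did not pass. Of 8 neutrophil markers only Mmp8, a collagenase, was called, at least 55.0-fold higher, while S100a8, well above background on 1 T0 array, read 2.12, 2.66, 2.66 and 2.44 in T0 and 2.99, 3.54, 4.14 and 3.19 in T2_NPC and did not pass (1.00 ± 0.71). Of 3 red blood cell markers Hbb, the beta globin, read 10.63, 10.90, 11.19 and 11.26 in T0, 9.69, 11.32, 11.08 and 11.31 in T2 and 13.21, 12.09, 14.17 and 12.35 in T2_NPC. T2_NPC was above every T0 and T2 array, by 1.96 ± 0.41 and 2.11 ± 0.41 (adjusted p = 3.20e-04 and 0.00209), the latter not called in 3 of the 18 settings. Slc4a1 differed from T0 by 0.80 ± 0.33, with its call lost in 13 settings, and Alas2 did not pass (0.38 ± 0.34). Of 8 skeletal muscle markers 3 were higher and 3 lower, with Tnnt3 at 1.84 ± 0.37 and Tnnc2 at -2.97 ± 0.47. Of 10 endothelial markers Cdh5, which joins endothelial cells, was higher (1.11 ± 0.23), as were Cldn5 and Ocln of tight junctions (0.50 ± 0.16 and 0.48 ± 0.18), with the calls lost in 4 and 7 of the 18 settings. Abcb1a, the drug exporter of the blood-brain barrier, was lower (-0.89 ± 0.16), as was Mfsd2 (-1.04 ± 0.27), a lipid transporter of the same barrier.

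Of 28 cAMP genes 13 were lower and 7 higher (median -0.52, and -0.56 in T2), where 26.5% of all features were lower and 21.2% higher, so that the share higher was near that of all features. Among the adenylyl cyclases, which make cAMP, Adcy2 (-1.43 ± 0.19), Adcy5 (-1.52 ± 0.14) and Adcy8 (-1.37 ± 0.18) were lower, and Adcy4 (3.67 ± 0.43) and Adcy7 (1.56 ± 0.18) higher. Adcy4 read 6.23, 6.92, 6.42 and 7.50 in T0 and 10.51, 10.35, 10.38 and 10.52 in T2_NPC, with no overlap. Of the protein kinase A subunits Prkar1b read 9.78, 10.83, 10.02 and 11.01 in T0 and 8.11, 8.40, 9.28 and 8.78 in T2_NPC and fell 3.40-fold (95% interval 2.01 to 5.74, log2 difference -1.77 ± 0.37, adjusted p = 3.09e-04), and the catalytic Prkaca and Prkacb differed by -0.86 ± 0.24 and -0.90 ± 0.16. Rapgef3, which encodes the cAMP-activated exchange factor EPAC1, read 10.75, 11.30, 11.12 and 11.84 in T0, 10.86, 11.21, 11.06 and 11.31 in T2 and 12.30, 12.49, 12.31 and 12.46 in T2_NPC. T2_NPC was above every T0 and T2 array, by 1.14 ± 0.21 (adjusted p = 6.94e-05) and 1.28 ± 0.21 (adjusted p = 4.12e-04), while T2 and T0 differed by -0.14 ± 0.21. Rapgef4, the gene of the other exchange factor EPAC2, was listed but not found by name, so the Rapgef3 values say nothing about EPAC2. The phosphodiesterases Pde4a and Pde4d, which degrade cAMP, were lower (-0.72 ± 0.15 and -0.72 ± 0.15). Of 13 genes of calcineurin and FK506-binding proteins, the targets of tacrolimus, 4 were higher and 4 lower, also not far from the shares over all features. Ppp3ca, a catalytic subunit of calcineurin, read 12.23, 12.64, 12.15 and 12.48 in T0, 11.38, 11.38, 11.15 and 11.36 in T2 and 10.71, 10.63, 10.98 and 10.67 in T2_NPC and fell 3.09-fold (95% interval 2.52 to 3.79, log2 difference -1.63 ± 0.14, adjusted p = 3.36e-09). Rcan1, a calcineurin inhibitor whose gene is itself induced by calcineurin, differed by 1.03 ± 0.09 and Fkbp5 by 0.95 ± 0.40 (adjusted p = 0.0533).

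Of 12 neurotrophic factors 7 were higher and 3 lower. Igf1, a growth factor made by macrophages and microglia, read 7.68, 7.60, 7.58 and 7.77 in T0 and 10.63, 10.60, 10.701 and 10.55 in T2_NPC and rose 7.80-fold (95% interval 5.44 to 11.2, log2 difference 2.96 ± 0.25, adjusted p = 1.84e-09). Igf2 differed by 2.96 ± 0.36, Tgfb1 by 2.58 ± 0.18, and Hgf was at least 4.64-fold higher. Vegfa, which drives vessel growth, was lower (-1.25 ± 0.12), as were Bdnf (-0.99 ± 0.32) and Lif (-1.11 ± 0.15). Gdnf differed by 0.75 ± 0.26, with its call lost in 4 settings. Of 14 axon growth genes 5 were higher and 7 lower. Atf3, a transcription factor of injured neurons and of stressed cells, read 8.66, 8.98, 8.995 and 8.77 in T0 and 13.71, 13.57, 13.48 and 13.83 in T2_NPC, separate from T0, and rose 27.8-fold (95% interval 19.9 to 38.8, log2 difference 4.795 ± 0.23, adjusted p = 1.59e-13). Stat3 (1.42 ± 0.11) and Klf6 (1.51 ± 0.14) were higher. The myelin-associated inhibitors of growth Omg (-0.96 ± 0.17), Mag (-0.74 ± 0.20) and Rtn4 (-0.33 ± 0.12), and the receptor genes Rtn4r (-1.04 ± 0.14) and Lingo1 (-0.82 ± 0.21), were lower, and Rtn4 lost its call in 6 settings. Gap43, a growth cone protein, did not pass (-0.36 ± 0.19). Of 10 immediate early genes, which respond to stimulation within minutes, 8 were higher and Arc was lower (-2.50 ± 0.28). Fos read 9.64, 9.88, 9.87 and 9.84 in T0, 11.29, 11.20, 11.19 and 11.78 in T2 and 12.57, 12.57, 12.25 and 12.34 in T2_NPC. It was higher than T0 in both injured groups and highest on the T2_NPC arrays, by 2.63 ± 0.19 from T0 and 1.07 ± 0.19 from T2 (adjusted p = 8.69e-04). Junb differed from T0 by 3.33 ± 0.26 and from T2 by 0.99 ± 0.26 (adjusted p = 0.017), the latter not called without T2 replicate 1 (adjusted p = 0.057) or T2_NPC replicate 1 (0.0522).

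To place each array between uninjured and chronically injured cord, its position was computed along the mean difference of T4 and T8 (4 and 8 weeks after injury) from T0 over all features, where 0 is the T0 mean and 1 the mean of T4 and T8. T2_NPC arrays stood at 1.12, 1.101, 0.903 and 1.01 (mean 1.03 ± 0.0981) and T2 arrays at 1.06, 0.845, 0.906 and 1.15 (mean 0.992 ± 0.142). T0 arrays lay between -0.0529 and 0.0534. The 2 injured groups overlapped, and their difference of 0.0407 had an exact two-sided permutation p of 0.686 over 70 arrangements, the smallest possible being 0.0286. No shift of transplanted cord towards T0 was detected within this spread, and its mean was the higher of the pair. T2 replicates 2 and 3, of session 1, stood lower than replicates 1 and 4 of session 2. The axis was also rebuilt from the T0, T4 and T8 arrays of 1 session. The difference from the T2 arrays of that session was then 0.12 for session 1 and -0.0803 for session 2.

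**Figure D4:**
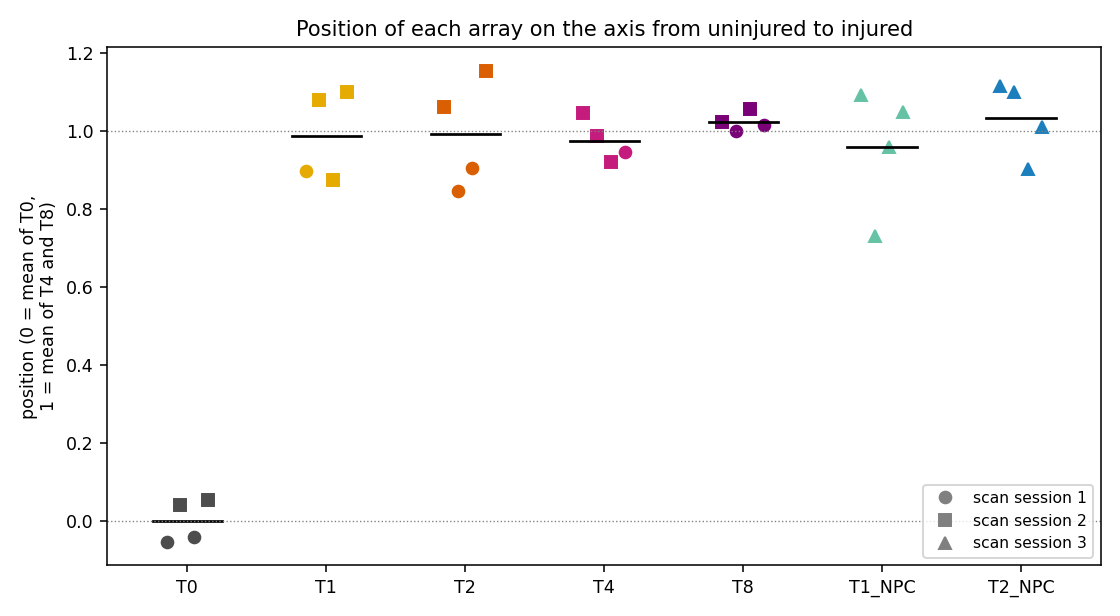
Position of each of the 28 arrays on the axis from uninjured (0) to the mean of T4 and T8 (1), by group, with bars for group means and marker shapes for the scan session. T2_NPC (mean 1.03) and T2 (mean 0.992) overlap, and both are far from T0.

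Set directly against T2, T2_NPC differed at 3359 features (9.47%), 1638 (4.62%) higher and 1721 (4.85%) lower, and 630 of these differed at least 2-fold. This count was 7399 on the arrays free of the naming conflict and 4414 with session 1 alone, which use the same T2 arrays. It was 2744 against session 2 alone and 1899 without T2_NPC replicate 2. Among list genes 42 were called, of which 7 kept the call in every setting on the value table and the matched scanner files. Among them were Mbp, Sox2, Rapgef3, Fos and Cyp51, given above, and Gphn, a scaffold of inhibitory synapses, which was higher than T2 (0.80 ± 0.13). The largest rises over T2 were Hbb, Lrfn1, a synaptic adhesion molecule (2.02 ± 0.17), Doxl1 (1.87 ± 0.19), Ppl, the desmosomal periplakin (1.68 ± 0.51, adjusted p = 0.0403, with the call lost in 9 of the 18 settings), and Rtn4rl2, a relative of the Nogo receptor (1.46 ± 0.26). Rtn4rl2 read 11.29, 12.02, 11.72 and 12.44 in T0, 11.46, 12.66, 12.39 and 12.48 in T2 and 13.58, 13.98, 13.72 and 13.55 in T2_NPC. T2_NPC was above T2 on every array, as the choice of these genes required. The largest falls were RGD1559821 (-2.61 ± 0.23), Notch3, a receptor of vascular smooth muscle and pericytes (-2.51 ± 0.50), Rps26, a ribosomal protein (-2.41 ± 0.24), Hist1h1d, a linker histone now named H1f4 (-2.12 ± 0.19), and Fam184b (-1.97 ± 0.51). Notch3 read 14.65, 14.73, 15.45 and 14.70 in T0, 15.38, 15.51, 15.44 and 15.47 in T2 and 12.56, 13.08, 13.09 and 13.02 in T2_NPC, with replicate 1 the lowest of T2_NPC. Rps26 read 12.61, 12.93, 12.98 and 12.93 in T0, 13.50, 13.60, 13.40 and 13.91 in T2 and 10.36, 11.31, 11.71 and 11.37 in T2_NPC. The T2_NPC arrays were lower than all T0 and T2 arrays for Rps26, which has near-identical copies in the genome, RGD1559821 possibly among them, so both are uncertain. All 10 genes also differed from T0, and slide, session and transplant cannot be told apart for them between T2_NPC and T2. By the matched scanner files, session 3 also held the T1_NPC arrays (acute transplant, taken 1 week after injury), on slide 3. All 4 T1_NPC arrays carry the naming conflict, and the files deposited as T1_NPC were on slide 6 in session 2. The mean of the T1_NPC table columns was 4.72 for Lrfn1, against 4.86 in T2 and 6.88 in T2_NPC. For Notch3 it was 12.70, against 15.45 in T2 and 12.94 in T2_NPC. The T1_NPC arrays read 13.89, 9.90, 13.53 and 13.48 for Notch3, so replicate 2 lowered that mean. The other T1_NPC arrays lay above every T2_NPC array and below every T2 array. For Rtn4rl2 the T1_NPC mean was 14.15, against 12.25 in T2 and 13.71 in T2_NPC. For Doxl1 it was 8.41, against 8.95 in T2 and 10.82 in T2_NPC. The cause was not tested.

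**Figure D5:**
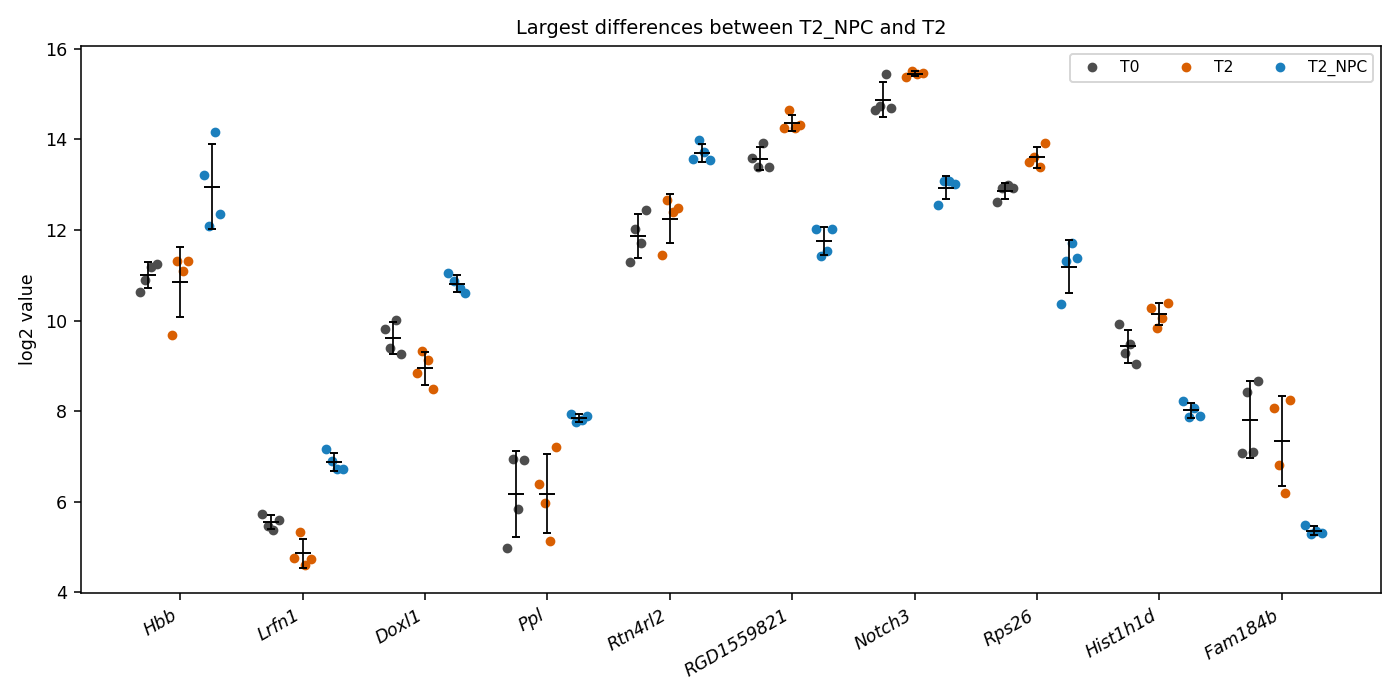
Log2 values on each T0, T2 and T2_NPC array of the 10 genes named for their difference between T2_NPC and T2, 5 higher and 5 lower, with means and SD (n = 4). T2_NPC does not overlap T2 for any of the 10, which was a condition of their choice.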

How the data were processed

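RNA of 28 pieces of rat spinal cord was labelled with Cy3 and hybridised to single-colour Agilent arrays. Per the labels and methods, the authors corrected background and normalised in Feature Extraction 10.7.1.1, quantile-normalised the arrays and deposited the values as log2. The deposited scanner intensity files were used for detection, slide, scan session and alternatives. Of 45018 spots, 1639 controls were left out. Spots were averaged per probe (41012) and probes per gene name, giving 35469 features, of which 4498 had more than 1 probe and 171 had probes called in opposite directions.

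Table columns were matched to scanner files by rank order (Spearman correlation 1, at most 0.993 for any other file). For 16 of 28 arrays the match was a file deposited under another sample, and groups follow the labels of the table. limma 3.58.1 in R 4.3.3 was fitted to all 28 arrays with 7 group means, with 21 residual degrees of freedom and Benjamini-Hochberg adjustment over all features at 0.05. The precision is limited by 4 arrays a group. Members, lists and tests were chosen with earlier results of these data known. The genes named were the 10 largest rises and falls against T0 and the 5 largest against T2, with no overlap between groups and signal well above background on all arrays of both, the 5 largest bounds among genes detected in 1 group and not in the other, and list members. Some genes that meet these rules are not reported here, though list counts and medians include them. Alternatives were the 75th percentile scaling and normexp background correction of the scanner files (on gMedianSignal, with offset 50), a filter on dim probes, single probes, a trended robust fit, only the groups compared, blocks for replicate, slide and session, a 2-fold minimum, and leaving out each array. After the data were seen, fits within scan sessions and on arrays free of the naming conflict were added. Same-numbered replicates were not paired, since their deviations correlated at -0.0444, 0.0254, 0.0638 and 0.0117. Normalisation to equal distributions hides any overall change in RNA content.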

Additional observations from a re-analysis of the deposited data

Results flagged for a closer look

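Of 77 groups of 4 values examined, 7 held an array whose gap to the nearest other passed Dixon's 95% critical value, and chance gives about 1 in 20. On the log2 scale, Fcrls read 14.0 and Ifitm1 14.9 in T2_NPC replicate 3, each below the other transplanted cords. Notch3 read 12.6 in T2_NPC replicate 1, below the other 3. In T0, Msr1 read 3.88 in replicate 2 and Lilrb4 3.40 in replicate 3, each above the other uninjured cords and not well above background. In T2, Hbb read 9.69 in replicate 1, below the other injured cords, and RGD1559821 read 14.6 in replicate 2, above them.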

How the results depend on the processing

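The count of features called between T2_NPC and T0 (16909) stayed within 1.5 times of itself under every alternative except a 2-fold minimum (8263) and the scanner files at their deposited samples (847). Leaving out 1 array gave 15397 to 16815 for T2_NPC against T0, 12394 to 14224 for T2 against T0, and 1899 to 3409 for T2_NPC against T2. The low counts of the last came without T2_NPC replicate 2 (1899) or 3 (2233) and without T2 replicate 1 (2040) or 3 (2177). For T2 against T0 (14176) the count was 6713 with the 2-fold minimum, 1 with the deposited samples and 8342 in session 1. For T2_NPC against T2 (3359) it was 630, 45 and, with slide as a random block, 1623, and 7399 on arrays free of the naming conflict. With session 1 alone, on the same T2 arrays, it was 4414. The replicate block gave 16625, 13876 and 2940 for the 3 comparisons and changed none by over 1.5 times, and by it Ppl lost its call against T2 (adjusted p = 0.058). The position on the injury axis, T2_NPC minus T2, ranged from -0.0083 to 0.0948 without 1 array. It turned sign without T2 replicate 2 (-0.0083) and with the axis rebuilt from time-course arrays of session 2 alone (-0.0803). Of the named genes, Ppl, Hbb, Fam184b and Notch3 lost their calls against T2 in some settings, 17 values of 630, and 30 of 35 were lost at the deposited samples, with none turned. The cause of these changes was not tested.

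The 4 transplanted cords shared 1 slide and, by the matched scanner files, a scan session without uninjured or injured reference. The naming conflict affects 2 of 4 T0 arrays. Differences common to slide 7 are therefore part of every value given for T2_NPC. Quantile normalisation, 4 arrays a group, and probes near background in T0 limit the precision of small and of very large differences.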
